A study of Mus musculus with 13 samples.

Results

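The mitochondrial genome transcripts are the symbols that begin with mt- in the gene count files of 13 mouse hearts. The rule found 37 of the 53278 symbols listed, made up of 13 mRNAs, 2 rRNAs and 22 tRNAs. The hearts came from male wild-type C57Bl6 mice that had surgery at 12 weeks of age and were 17 weeks old at sampling. In the IR edit group (n = 4) ischaemia and reperfusion, a temporary stop of the blood supply to heart muscle, was combined with injection of a functional system that edits CaMKIIδ, a calcium-dependent kinase of heart muscle. The IR virus group (n = 3) had the same injury and a control virus, the IR group (n = 3) the injury with no injection, and the Sham group (n = 3) sham surgery with no injection. The injected hearts thus differ from Sham in both injury and injection. The labels give no kind or dose of the virus, no batch and no date. RNA from whole hearts was prepared with an mRNA library kit, which enriches RNA that carries a poly(A) tail.

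Each mitochondrion carries circular DNA whose strands are copied into long precursor RNAs. These are cut at the tRNAs into mRNAs, rRNAs and tRNAs. The mRNAs encode subunits of complexes I, III and IV of the respiratory chain and of ATP synthase, and heart muscle, which works almost without pause on oxidative metabolism, is among the tissues richest in them. The rRNAs mt-Rnr1 and mt-Rnr2 form the core of the mitochondrial ribosome, and mt-Nd6 is the mRNA encoded on the opposite strand to the others.

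Library totals ran from 20634820 to 27265276 counts. Camk2d, the gene of the edited kinase, averaged 223 ± 17.9 CPM in IR edit hearts (SD, n = 4) and 251 ± 45.1 CPM in Sham hearts (n = 3), where CPM is the library-scaled count per 1000000 counts, taken after TMM scaling of the libraries. It was not called in any comparison, with adjusted p from 0.369 (edgeR) upwards, and gene counts do not show whether its bases were edited. The 8 cardiomyocyte markers all passed the low-count filter, and their summed level ran from 67217 to 97200 CPM scaled on nuclear genes, whereas 5 adipocyte markers summed to between 0.0615 and 3.10 CPM. IR edit replicate 3 was the highest IR edit heart in most mitochondrial values, and results that rest on it are given with and without it. The check for single distant hearts, given at the end, flagged no mitochondrial symbol or share in that heart.

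Levels along the mitochondrial genome fell into 2 classes, and did so in every heart of every group. The 7 mRNA symbols mt-Nd1, mt-Nd2, mt-Co1, mt-Nd4, mt-Nd5, mt-Nd6 and mt-Cytb each had between 403645 and 2009651 counts in a heart and together made up 95.2% of all mitochondrial counts. The other 6, mt-Co2, mt-Atp8, mt-Atp6, mt-Co3, mt-Nd3 and mt-Nd4l, had between 27 and 2305 counts in a heart and made up 0.0279%. Per base of gene length the first class averaged 524 to 1379 counts over the 13 hearts and the second 0.125 to 1.35.

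The 6 low symbols lie next to each other, and all of them fall in an interval of 4653 bases, chrM:6390-11042 in mm10, whose ends are set by genes with near-identical annotated copies on chromosome 1, chr1:24611535-24616197, on the minus strand. The copies were found by aligning transcript sequences of GENCODE M21, which gave one for mt-Co2, mt-Atp6, mt-Co3, mt-Nd3 and mt-Nd4l. For mt-Atp8, which shares 43 bases with mt-Atp6, no copy was found among the annotated transcripts. Only alignments of at least 100 bases were kept, so these 43 bases alone could not give one. Nor could the 5 tRNAs of the interval, which are 65 to 70 bases long. The sequence between the annotated copies was not compared. The first 90 bases of mt-Co2, which encodes a core subunit of cytochrome c oxidase (chrM:7013-7102, plus strand), and of its copy Gm28661 (chr1:24615476-24615565, minus strand) are shown because they are the same at every base.
mt-Co2: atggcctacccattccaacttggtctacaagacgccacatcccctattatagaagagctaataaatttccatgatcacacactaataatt
Gm28661: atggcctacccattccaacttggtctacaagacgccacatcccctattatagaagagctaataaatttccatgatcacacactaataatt

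The pair was 100% identical over 681 bases. The first 90 bases of mt-Nd3, a small membrane subunit of complex I (chrM:9459-9548, plus strand), and of its copy Gm28438 (chr1:24613030-24613119, minus strand) are shown because they hold the only difference of the pair over 345 bases. Capitals mark the base that differs, T3C from mt-Nd3 to Gm28438, counted from 1 at the 5′ end of the gene.
mt-Nd3: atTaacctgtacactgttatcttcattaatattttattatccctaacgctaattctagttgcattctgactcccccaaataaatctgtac
Gm28438: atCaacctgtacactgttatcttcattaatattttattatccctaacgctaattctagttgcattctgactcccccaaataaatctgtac

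mt-Nd2, a complex I subunit outside the interval, had high counts although part of it also has a nuclear relative, Gm13339 on chromosome 2. That pair was 96.7% identical over 510 bases, and 90 bases of it (chrM:4442-4531, plus strand, and chr2:22590444-22590533, minus strand) are shown for contrast, with capitals at the 2 bases that differ.
mt-Nd2: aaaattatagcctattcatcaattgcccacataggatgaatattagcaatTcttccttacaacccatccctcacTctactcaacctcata
Gm13339: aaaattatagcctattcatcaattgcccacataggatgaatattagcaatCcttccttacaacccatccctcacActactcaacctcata

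mt-Co1 and mt-Nd4 cross the edges of the interval. Of the 1545 bases of mt-Co1, which encodes the catalytic subunit of cytochrome c oxidase, 483 have a copy in Gm29216, and of the 1378 bases of mt-Nd4, a proton-pumping subunit of complex I, 876 have one in Gm28439. Divided by the uncopied bases alone, their counts came to 1586 per base for mt-Co1 and 1439 per base for mt-Nd4. The mRNAs outside the interval, with no near-identical copy, all had fewer. They had 1379 per base for mt-Cytb, the complex III subunit, 1026 for mt-Nd6, 999 for mt-Nd1, 855 for mt-Nd2 and 712 for mt-Nd5. The 5 tRNA symbols inside the interval had 0 to 19 counts in a heart. How reads that match more than 1 place were counted is not given in the sources used here, and its part in these levels was not tested. The share of mitochondrial counts below therefore stands mainly for the 7 mRNAs that lie wholly or partly outside the interval and for the rRNAs.

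**Figure D1:**
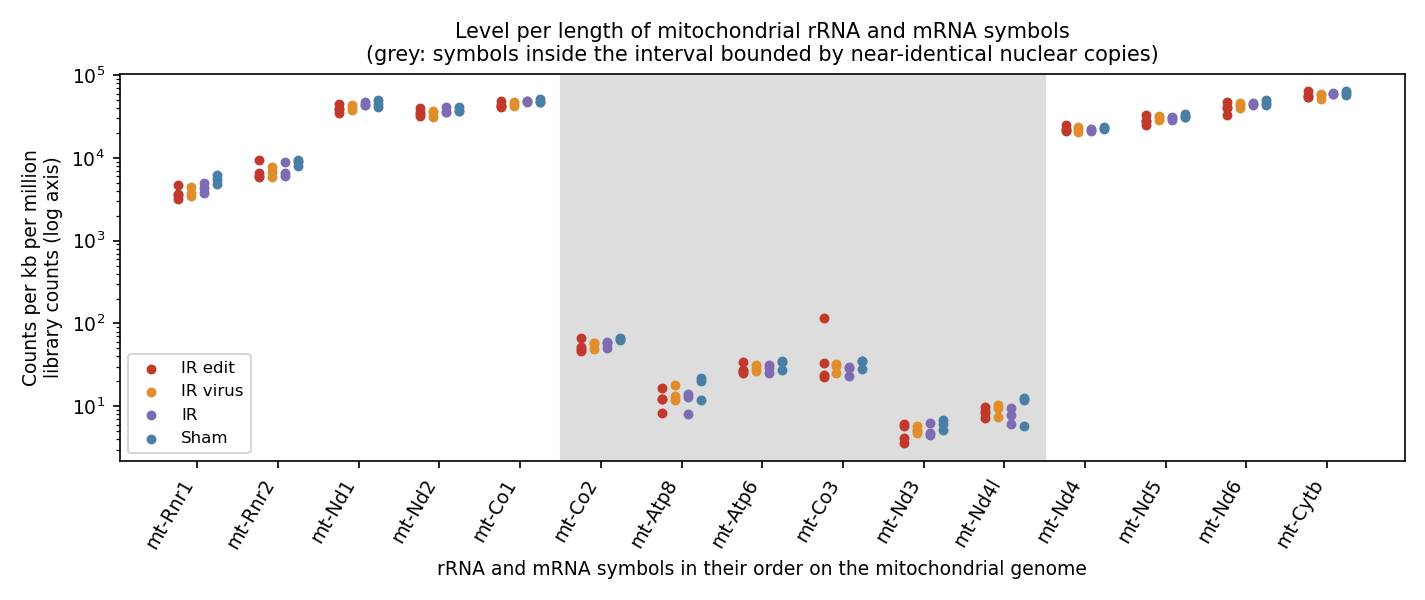
Counts per kilobase and per 1000000 library counts (log axis) for the rRNA and mRNA symbols in their order on the mitochondrial genome, 1 point per heart, coloured by group. The 6 symbols in the grey interval, of which all but mt-Atp8 have a near-identical annotated nuclear copy, sit far below the rest in every heart of all 4 groups.

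Mitochondrial transcripts took 31.9%, 32.2%, 37.4% and 29.7% of the library in IR edit hearts 1 to 4, and 30.7%, 34.7% and 34.3% in IR virus hearts 1 to 3. They took 34.5%, 34.4% and 35.6% in IR hearts and 35.6%, 34.9% and 38.5% in Sham hearts. Each injured group had a lower mean than Sham, and 3 of 4 IR edit, 3 of 3 IR virus and 2 of 3 IR hearts lay below the lowest Sham heart.

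The mean share was 32.8% ± 3.23 in IR edit (SD, n = 4), 33.2% ± 2.16 in IR virus, 34.9% ± 0.669 in IR and 36.3% ± 1.93 in Sham hearts (n = 3 each). The difference in mean share from Sham was -3.54 percentage points for IR edit, -3.11 for IR virus and -1.46 for IR. The SDs of IR edit (3.23) and IR virus (2.16) are not far below their differences, and the difference of IR is smaller than the SD of Sham (1.93). Without IR edit replicate 3 the IR edit mean was 31.3% ± 1.37. These summed shares carry no test. In whole-heart RNA fewer cells of a type and less RNA per cell cannot be told apart.

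**Figure D2:**
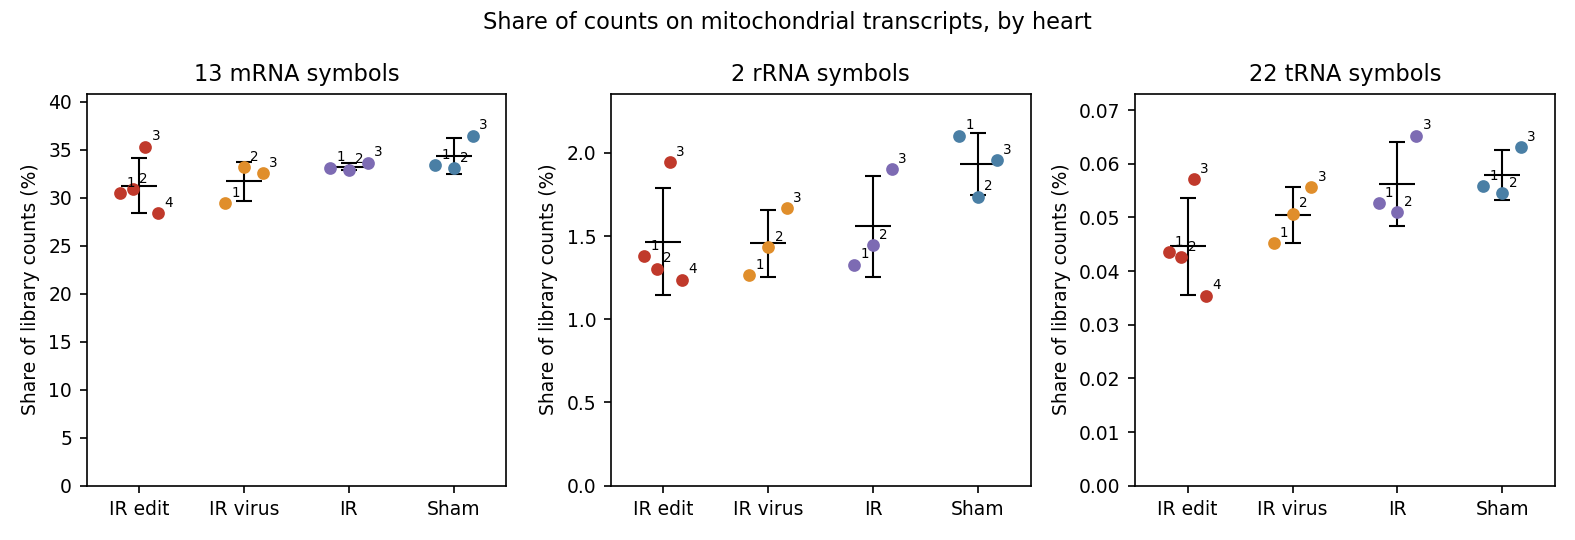
Share of library counts (%) on the 13 mRNA, 2 rRNA and 22 tRNA symbols, 1 numbered point per heart with the group mean and SD. In the rRNA panel the 3 IR virus hearts and all but the replicates numbered 3 of IR edit and IR lie below the lowest Sham heart.

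The mRNAs mostly lay below Sham in each injured group, and none of them passed the test. In IR edit against Sham, 12 of 13 had a negative log2 fold change, beside 50.2% of all genes, with a median of -0.26 against -0.0015 over all genes tested. By edgeR's quasi-likelihood test 0 of the 13 were called, and DESeq2 called 0. Here and below a call means an adjusted p under 0.05 over the 15690 genes that passed the low-count filter, of which 8.01% were called in this comparison. At an unadjusted p under 0.05 there were 4 mRNAs, mt-Nd1, mt-Co2, mt-Atp8 and mt-Nd6, beside 23.6% of all genes. Of these mt-Co2 and mt-Atp8 are low symbols inside the copied interval. The 7 mRNAs outside it or across its edge were all negative, with a median of -0.24.

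All 13 mRNAs were negative in IR virus against Sham (median -0.23), beside 48.3% of all genes, and all 13 were in IR against Sham (median -0.15), beside 49.8%. None was called by edgeR or by DESeq2 in either comparison. At an unadjusted p under 0.05 there was 1 mRNA in each, mt-Co2 in IR virus, where 15.4% of all genes passed that mark, and mt-Atp8 in IR, where 8.33% did. Both lie inside the copied interval. For the 7 mRNAs outside it or across its edge the median was -0.20 in IR virus and -0.10 in IR. The 3 comparisons share the Sham hearts.

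mt-Co1 had 64539, 63546, 80864 and 60086 CPM in IR edit hearts and 62414, 73202 and 68627 CPM in IR virus hearts. It had 73981, 72329 and 75564 CPM in IR hearts and 75887, 75584 and 86888 CPM in Sham hearts. All IR virus and IR hearts lay below the lowest Sham heart, and 3 of 4 IR edit hearts did. mt-Co1 was -0.24 ± 0.11 on the log2 scale in IR edit against Sham (SE, edgeR adjusted p = 0.221).

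The complex I mRNAs outside the interval had their highest mean in Sham. mt-Nd1, an early-assembled membrane subunit, averaged 37530 ± 6316 CPM in IR edit, 38641 ± 4022 in IR virus, 42520 ± 2880.1 in IR and 45708 ± 5539 CPM in Sham hearts. mt-Nd2 averaged 36324 ± 5423 CPM in IR edit, 35342 ± 4246 in IR virus, 38990 ± 3694 in IR and 41298.5 ± 3691 CPM in Sham hearts. mt-Nd5, the largest membrane subunit, averaged 51642 ± 8964 CPM in IR edit, 54657 ± 4786 in IR virus, 55380 ± 1643 in IR and 61289 ± 4784 CPM in Sham hearts. IR stood next to Sham for all 3, and the injected groups were lowest.

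mt-Nd4 averaged 30643 ± 4273 CPM in IR edit, 30009 ± 2999.6 in IR virus, 29737 ± 1129.99 in IR and 32860 ± 1909 CPM in Sham hearts. mt-Nd6 averaged 20763 ± 4309 CPM in IR edit, 22114 ± 2384 in IR virus, 23269 ± 241 in IR and 25482 ± 2672 CPM in Sham hearts. Outside complex I, mt-Cytb averaged 65313 ± 8981 CPM in IR edit, 63629 ± 6878 in IR virus, 68056 ± 1387 in IR and 72831 ± 5536 CPM in Sham hearts. For each of these 3 the SD was smallest in IR and widest in IR edit.

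The mRNAs at the ends of the range were mostly the low ones. mt-Atp8, a small ATP synthase subunit with only 39 to 122 counts in a heart, had the most negative value in each comparison with Sham, -0.63 ± 0.26 in IR edit (edgeR adjusted p = 0.155), -0.42 ± 0.28 in IR virus (0.479) and -0.69 ± 0.28 in IR (0.546). Next came mt-Nd3 in IR edit at -0.37 ± 0.21 (adjusted p = 0.302), mt-Co2 in IR virus at -0.33 ± 0.14 (0.294) and mt-Nd4l, a small complex I subunit, in IR at -0.43 ± 0.26 (0.687). mt-Nd4 was the nearest to 0 in IR edit at -0.10 ± 0.11 (adjusted p = 0.643) and in IR virus at -0.13 ± 0.12 (0.618), and mt-Nd2 in IR at -0.08 ± 0.14 (0.910). None of these passed. mt-Co2 averaged 36.2 ± 8.31 CPM in IR edit, 37.1 ± 4.56 in IR virus, 38.6 ± 2.79 in IR and 46.5 ± 0.975 CPM in Sham hearts, and all IR virus and IR hearts lay below Sham. mt-Atp6, the proton channel subunit of ATP synthase, averaged 19.3 ± 4.06 CPM in IR edit, 19.5 ± 2.43 in IR virus, 19.4 ± 1.74 in IR and 23.0 ± 2.40 CPM in Sham hearts.

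mt-Co3, a further subunit of cytochrome c oxidase inside the copied interval, was the mRNA with a positive value in IR edit against Sham, 0.47 ± 0.41 (adjusted p = 0.532). It had 2305 counts in IR edit replicate 1 and 383 to 748 in the other 12 hearts. Without that heart the log2 fold change was -0.36.

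The nuclear copies had heart-specific maxima of the same kind. Gm28661 had 3492 counts in IR edit replicate 2, and no other heart had more than 721. Gm28438 had 3050 counts in IR replicate 3, and no other heart had more than 1135. Gm29216 was highest in IR replicate 2, with 3144 counts, followed by IR edit replicate 1 with 1731, IR replicate 3 with 1708 and IR edit replicate 4 with 1260, and was at most 727 in the others. Gm28439 was highest in Sham replicate 2, with 2155 counts, followed by IR edit replicate 1 with 1899 and IR virus replicate 3 with 1696, and was at most 651 in the others. The heart with the most counts differed between these 4 copies, but some hearts were high in more than 1 symbol, IR edit replicate 1 in mt-Co3, Gm28439 and Gm29216 and IR replicate 3 in Gm28438 and Gm29216. For these near-identical pairs a count cannot be tied to the mitochondrial or the nuclear sequence.

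**Figure D3:**
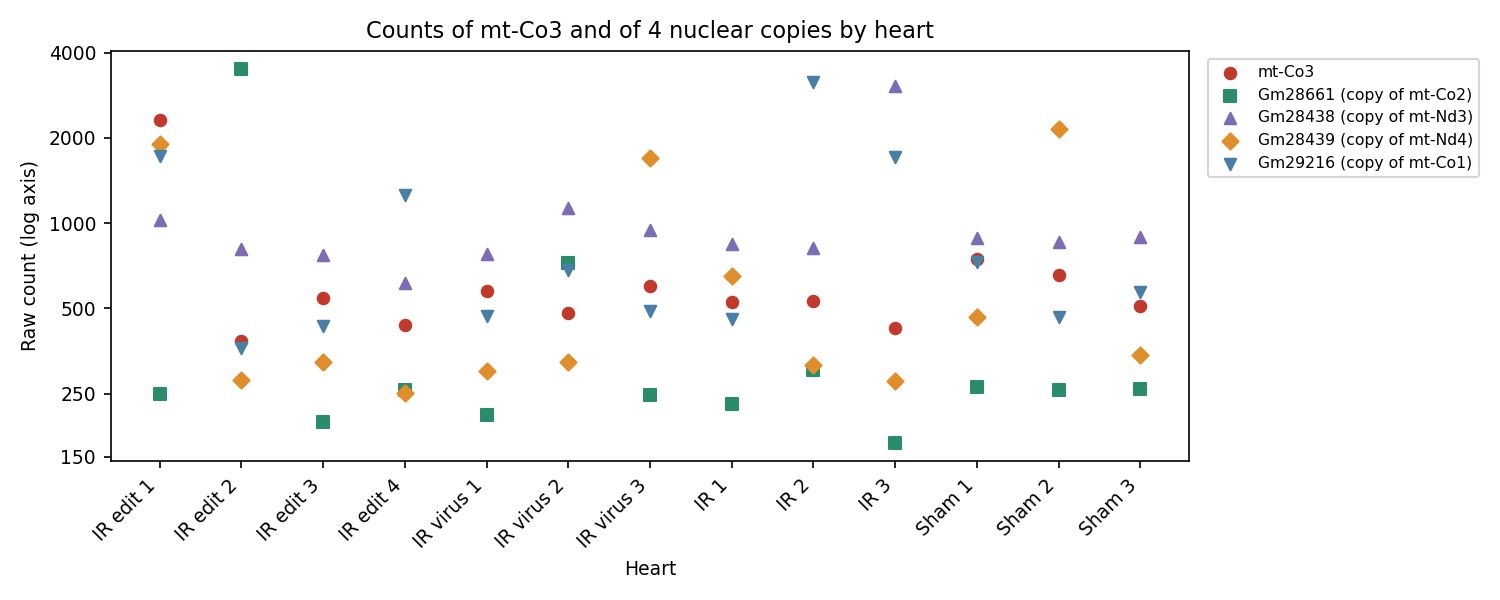
Raw counts (log axis) of mt-Co3 and of 4 nuclear copies in each heart, with the hearts in the order IR edit, IR virus, IR and Sham. Each symbol has 1 or a few hearts several times above its other hearts, such as 3492 counts of Gm28661 in IR edit 2, and IR edit 1 is high in mt-Co3 (2305), Gm28439 (1899) and Gm29216 (1731).

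Of the 27 mitochondrial symbols tested, the 12S rRNA mt-Rnr1 had the most negative log2 fold change in both injected groups against Sham. This rRNA of the small ribosomal subunit (chrM:70-1024) had 3309, 3294, 4787 and 2907 CPM in IR edit hearts and 3130, 3621 and 4268 CPM in IR virus hearts. It had 3564, 4126 and 4817 CPM in IR hearts and 6163, 4774 and 5757 CPM in Sham hearts. All 3 IR virus hearts lay below Sham, and in IR edit and IR the heart numbered 3 lay above the lowest Sham heart.

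mt-Rnr1 fell in IR edit against Sham, to 3574 ± 830 CPM against 5565 ± 714 CPM in Sham (SD, n = 4 and 3), a log2 fold change of -0.64 ± 0.16 (SE, edgeR adjusted p = 0.0265). In the same comparison 3.40% of all genes were called lower. The call was kept in 8 of 13 fits that left out 1 heart. It was lost without IR edit replicate 1, 2 or 4 or Sham replicate 1 or 3, with an adjusted p of up to 0.0955, and in a fit of only those groups (0.0857).

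mt-Rnr1 was -0.60 ± 0.17 in IR virus against Sham (edgeR adjusted p = 0.17). DESeq2 called it, at -0.61 with an adjusted p of 0.0377, and edgeR did so without IR edit replicate 3 (adjusted p = 0.0478). It was -0.42 ± 0.17 in IR against Sham (adjusted p = 0.549). Between the injected groups mt-Rnr1 differed by -0.04 ± 0.16 in IR edit against IR virus (adjusted p = 0.938).

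mt-Rnr2, the 16S rRNA of the large ribosomal subunit (chrM:1094-2675), had 9786, 9436, 15973 and 8857 CPM in IR edit hearts and 8847, 10892 and 12272 CPM in IR virus hearts. It had 9580, 10161 and 14473 CPM in IR hearts and 15497, 13038 and 15341 CPM in Sham hearts. The IR edit and IR hearts overlapped Sham through the replicates numbered 3, and the IR virus hearts did not overlap it. mt-Rnr2 was -0.41 ± 0.19 in IR edit (adjusted p = 0.218), -0.45 ± 0.21 in IR virus (0.316) and -0.36 ± 0.21 in IR (0.679), each against Sham, so that it was not called in any of the 3.

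The rRNAs carry short tails or none in mammals, so in a library enriched for poly(A) RNA their counts stand for the part that was carried through. The heart numbered 3 had the highest rRNA share of its group in IR edit (1.94%), IR virus (1.67%) and IR (1.90%), and Sham replicate 1 did among the Sham hearts (2.1%). The labels do not say that a number marks a batch, and the part of any batch in these values was not tested.

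**Figure D4:**
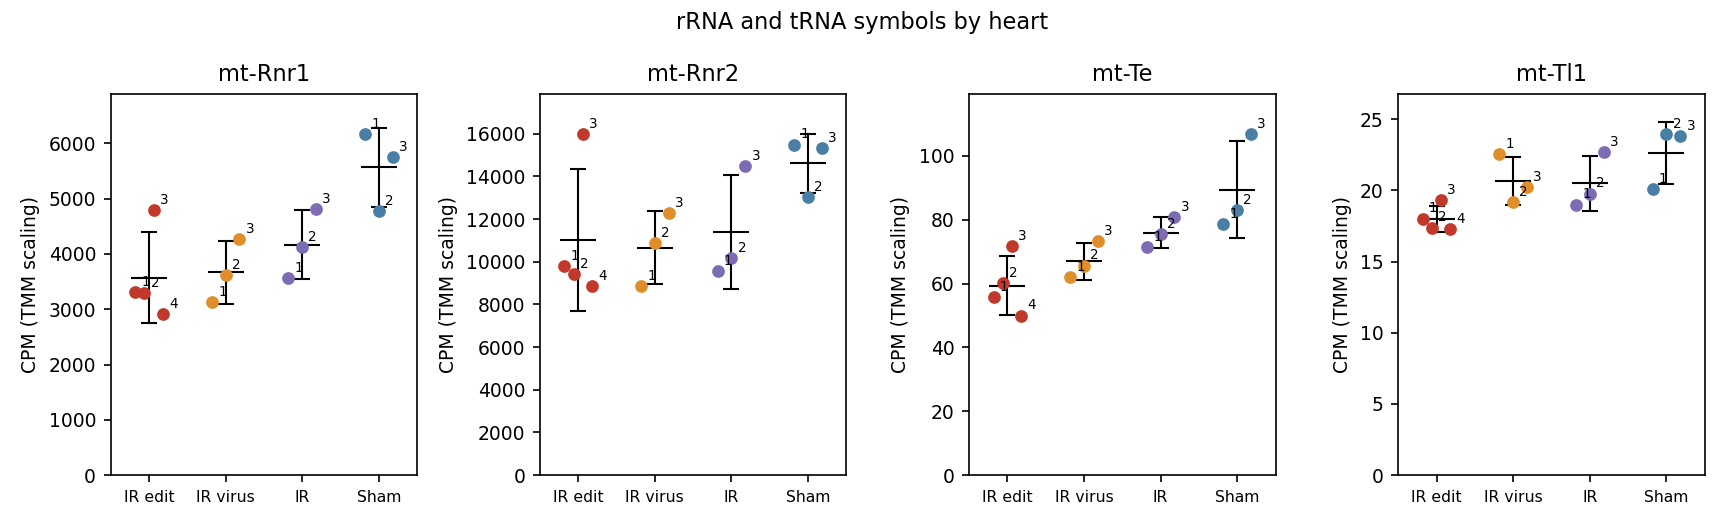
CPM after TMM scaling for mt-Rnr1, mt-Rnr2, mt-Te and mt-Tl1, 1 numbered point per heart with the group mean and SD. The Sham hearts have the highest mean in each panel, and IR edit 3 is the highest IR edit heart in each.

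Of the 22 tRNA symbols 12 passed the filter, and 2 fell in IR edit against Sham, where 3.40% of all genes were called lower. Most of the 22 had few counts, and mt-Tk and mt-Th had 0 in all 13 hearts. The library was enriched for poly(A) RNA. Whether the counts of these symbols come from tRNAs or from longer precursor RNAs was not tested. mt-Te, which carries glutamate (chrM:14071-14139, minus strand), had 55.9, 60.1, 71.6 and 50 CPM in IR edit hearts and 62.0, 65.6 and 73.4 CPM in IR virus hearts. It had 71.3, 75.5 and 80.9 CPM in IR hearts and 78.5, 83.0 and 106.7 CPM in Sham hearts. All IR edit and IR virus hearts lay below the lowest Sham heart, and 1 IR heart lay above it.

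mt-Te fell by 0.59 ± 0.12 on the log2 scale in IR edit against Sham (SE, edgeR adjusted p = 0.0102). The call was kept in all 13 fits that left out 1 heart, with an adjusted p of up to 0.0492, and was lost in a fit of only those groups (0.0628). It was -0.42 ± 0.13 in IR virus against Sham (adjusted p = 0.186), -0.24 ± 0.13 in IR against Sham (0.669) and -0.17 ± 0.12 between IR edit and IR virus (0.522).

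mt-Tl1, which carries leucine and lies directly after mt-Rnr2, had 18, 17.4, 19.3 and 17.3 CPM in IR edit hearts and 22.5, 19.2 and 20.2 CPM in IR virus hearts. It had 19.0, 19.8 and 22.7 CPM in IR hearts and 20.1, 23.9 and 23.8 CPM in Sham hearts. It fell by 0.33 ± 0.092 in IR edit against Sham (SE, adjusted p = 0.0419), with no overlap, but the call was kept in only 5 of 13 fits that left out 1 heart (adjusted p up to 0.131) and was lost in a fit of only those groups (0.1). Leaving out any of IR edit replicates 1, 2 and 4, IR virus replicate 3, IR replicates 1 and 2 or Sham replicates 2 and 3 ended it.

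mt-Te, mt-Tc and mt-Nd6 are encoded on the minus strand opposite long precursors of the other strand. mt-Nd6 and mt-Nd5 share 14 bases. Whether the counting used strand is not given in the sources used here, so that reads of these genes and of the RNA opposite them cannot be told apart. mt-Tc, which carries cysteine, had 5395 to 10765 counts, the most of any tRNA symbol, and averaged 294 ± 89.5 CPM in IR edit, 328 ± 50.6 in IR virus, 385 ± 70.5 in IR and 409 ± 60.6 CPM in Sham hearts.

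The remaining tRNA symbols were low. mt-Tp for proline had 473 to 923 counts in a heart, mt-Tm for methionine 283 to 465, mt-Ta for alanine 243 to 425, mt-Tq for glutamine 104 to 266 and mt-Ti for isoleucine 40 to 110. mt-Tl2, the other leucine tRNA, had 272 counts in IR replicate 3 and 50 to 112 in the other hearts. mt-Tn for asparagine had 23 to 54 counts, mt-Ts1 for serine 5 to 19 and mt-Tt for threonine 4 to 15. The 8 others with any count (mt-Tf, mt-Tv, mt-Tw, mt-Ty, mt-Td, mt-Tg, mt-Tr and mt-Ts2) had at most 9 in a heart and did not pass the filter. Of the 12 tested 11 were negative in IR edit against Sham, 7 in IR virus against Sham and 9 in IR against Sham.

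The count of mitochondrial symbols called in IR edit against Sham rested on IR edit replicate 3. With all hearts 3 of 27 symbols tested were called by edgeR, all lower, beside 8.01% of all genes called and 3.40% called lower. DESeq2 called 3. The IR edit hearts all lay below the Sham hearts for 3 symbols, beside 8.18% of all genes. An unadjusted p under 0.05 was found for 10 symbols, beside 23.6% of all genes. Without IR edit replicate 3 edgeR called 14, all lower, comprising both rRNAs, 7 mRNAs and 5 tRNAs, beside 15.0% of all genes. The mRNAs were mt-Nd1, mt-Co1, mt-Co2, mt-Atp8, mt-Atp6, mt-Nd5 and mt-Nd6, with log2 fold changes from -0.85 for mt-Atp8 to -0.35 for mt-Co1. Of these mt-Co2, mt-Atp8 and mt-Atp6 lie inside the copied interval, with only 39 to 1253 counts in a heart. Leaving out IR edit replicate 1, 2 or 4 or Sham replicate 3 left 1 symbol called.

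For IR virus against Sham edgeR called 0 mitochondrial symbols, beside 0.0127% of all genes, and DESeq2 called 1, mt-Rnr1. At an unadjusted p under 0.05 there were 4, beside 15.4% of all genes. Here 6 symbols had all IR virus hearts below all Sham hearts, mt-Rnr1, mt-Rnr2, mt-Nd2, mt-Co1, mt-Co2 and mt-Te, beside 10.3% of all genes. For IR against Sham edgeR called 0, beside 0.0127% of all genes, and DESeq2 called 0. At an unadjusted p under 0.05 there were 2, beside 8.33% of all genes. Here 5 symbols had all IR hearts below all Sham hearts, mt-Co1, mt-Co2, mt-Co3, mt-Nd4 and mt-Nd5, beside 6.45% of all genes.

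No mitochondrial symbol was called between the injured groups with all hearts. Between IR edit and IR virus, where edgeR called 2.02% of all genes, 0 of 27 mitochondrial symbols were called by edgeR or DESeq2. At an unadjusted p under 0.05 there was 1, mt-Tl1 at -0.20 ± 0.093 (edgeR adjusted p = 0.325), beside 15.2% of all genes. The mRNAs had a median log2 fold change of -0.04, with 9 of 13 negative, beside 51.5% of all genes. The mean mitochondrial share differed by -0.43 percentage points, less than the SD of either group.

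Among the mRNAs of IR edit against IR virus, mt-Co3 had the highest value, 0.71 ± 0.41 (edgeR adjusted p = 0.437), and it was -0.12 without IR edit replicate 1. mt-Nd2 came next at 0.04 ± 0.13 (adjusted p = 0.921). mt-Atp8 was lowest at -0.22 ± 0.27 (adjusted p = 0.747), followed by mt-Nd6 at -0.09 ± 0.14 (0.797). mt-Rnr2 differed by 0.05 ± 0.20 (adjusted p = 0.940). The values for both ends of the range are within 2 SE of 0.

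IR edit against IR had 1.42% of all genes called and 0 mitochondrial symbols called by either tool. With no adjustment 2 had a p under 0.05, mt-Tl2 and mt-Te, beside 14.5% of all genes. Without IR edit replicate 3, mt-Tc and mt-Te were called lower there, 2 symbols beside 3.12% of all genes. Between IR virus and IR, edgeR and DESeq2 called 0 mitochondrial symbols, with 0 at an unadjusted p under 0.05 beside 3.84% of all genes, and edgeR called 0% of all genes.

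The balance between the transcripts was then read by scaling each library on the summed counts of the 13 mRNAs, which removes a joint change of the share. This scaling puts the median log2 fold change of all genes at 0.23 in IR edit, 0.21 in IR virus and 0.11 in IR against Sham, so that nuclear genes are not read from it. The 7 mRNAs outside the interval or across its edge then lay between -0.09 for mt-Nd6 and 0.11 for mt-Nd4 in IR edit against Sham, and 0 of 13 mRNAs were called or had an unadjusted p under 0.05, which 28.0% of all genes had. DESeq2 was not run with this scaling.

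Relative to the mRNAs mt-Rnr1 fell in IR edit against Sham, by 0.44 ± 0.11 on the log2 scale (SE, edgeR adjusted p = 0.0293), and so did mt-Te, by 0.37 ± 0.10 (adjusted p = 0.0385). These were 2 of 27 symbols, beside 7.13% of all genes called and 0.778% called lower. The scaling put 81.7% of all genes above 0 in this comparison. The shares of all genes given for this scaling, here and below, are therefore no baseline for the mitochondrial symbols. For 3 symbols, mt-Rnr1, mt-Te and mt-Ta, all IR edit hearts lay below all Sham hearts, beside 1.89% of all genes. For 3 others, the mRNAs mt-Nd2, mt-Nd4 and mt-Cytb, all IR edit hearts lay above all Sham hearts, beside 9.96% of all genes. mt-Nd4 took 9.47%, 9.93%, 9.76% and 10.51% of the mRNA counts in IR edit hearts and 9.38%, 9.22% and 8.89% in Sham hearts, a log2 fold change of 0.11 ± 0.066 (adjusted p = 0.259). mt-Cytb was 0.06 ± 0.060 (adjusted p = 0.517) and mt-Nd2 0.03 ± 0.067 (0.776). mt-Rnr1 kept the call in 8 of 13 fits that left out 1 heart, and lost it without IR edit replicate 1, 2 or 4 or Sham replicate 1 or 3. mt-Te kept it in 3 of 13, and both lost it in a fit of only those groups.

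Relative to the mRNAs mt-Rnr1 was -0.40 ± 0.12 in IR virus against Sham (edgeR adjusted p = 0.209) and -0.31 ± 0.12 in IR against Sham (adjusted p = 0.693). Between IR edit and IR virus it was -0.04 ± 0.11 (adjusted p = 0.975). With this scaling edgeR called 0 mitochondrial symbols in the 5 other comparisons, beside 0% of all genes in IR virus against Sham, IR against Sham and IR virus against IR, 0.650% in IR edit against IR virus and 0.586% in IR edit against IR. At an unadjusted p under 0.05 there were 2 in IR virus against Sham (16.1% of all genes), 2 in IR against Sham (6.21%), 0 between IR edit and IR virus (8.87%), 5 between IR edit and IR (10.8%) and 0 between IR virus and IR (1.61%).

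The rRNAs made up 4.44% ± 0.53 of mitochondrial counts in IR edit, 4.37% ± 0.423 in IR virus, 4.46% ± 0.777 in IR and 5.32% ± 0.511 in Sham hearts. The log2 ratio of rRNA to mRNA averaged -4.43 in IR edit, -4.45 in IR virus, -4.43 in IR and -4.15 in Sham hearts. With all hearts the 3 injured groups had almost the same mean, and each lay below Sham by 0.28 to 0.30 on the log2 scale. Without replicate 3 the IR edit mean was -4.52 ± 0.051, and the rRNAs made up 4.18% ± 0.143 of the mitochondrial counts in that group. Replicate 3 was also the highest heart in IR (-4.15, against -4.64 and -4.51) and in IR virus (-4.29, against -4.54 and -4.53). The IR edit mean without it is thus not ranked against the other injured groups with all hearts. With all hearts the difference of each injured group from Sham is wider than the SD of 0.14 in Sham and close to the SD of 0.26 in IR.

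The proportion of the rRNAs to each other was higher in the injected hearts. The log2 ratio of mt-Rnr2 to mt-Rnr1, a measure chosen after the values were seen and given with no test, was 1.56, 1.52, 1.74 and 1.61 in IR edit hearts and 1.5, 1.59 and 1.52 in IR virus hearts. It was 1.43, 1.3 and 1.59 in IR hearts and 1.33, 1.45 and 1.41 in Sham hearts. All 7 injected hearts lay above the highest Sham heart, and the IR hearts lay on both sides of the Sham range and within it.

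mt-Nd6, whose transcript comes from the other strand, stood in nearly the same proportion to the other 12 mRNAs in IR virus, IR and Sham hearts. The log2 ratio averaged -3.81 ± 0.104 in IR edit, -3.72 ± 0.0729 in IR virus, -3.73 ± 0.0562 in IR and -3.71 ± 0.0521 in Sham hearts (SD, n = 4 and 3 each). The IR edit mean differed by -0.10 from Sham on the log2 scale, about the SD of its own hearts. Tested alone, mt-Nd6 relative to the mRNAs was -0.09 ± 0.075 in IR edit against Sham (edgeR adjusted p = 0.429).

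**Figure D5:**
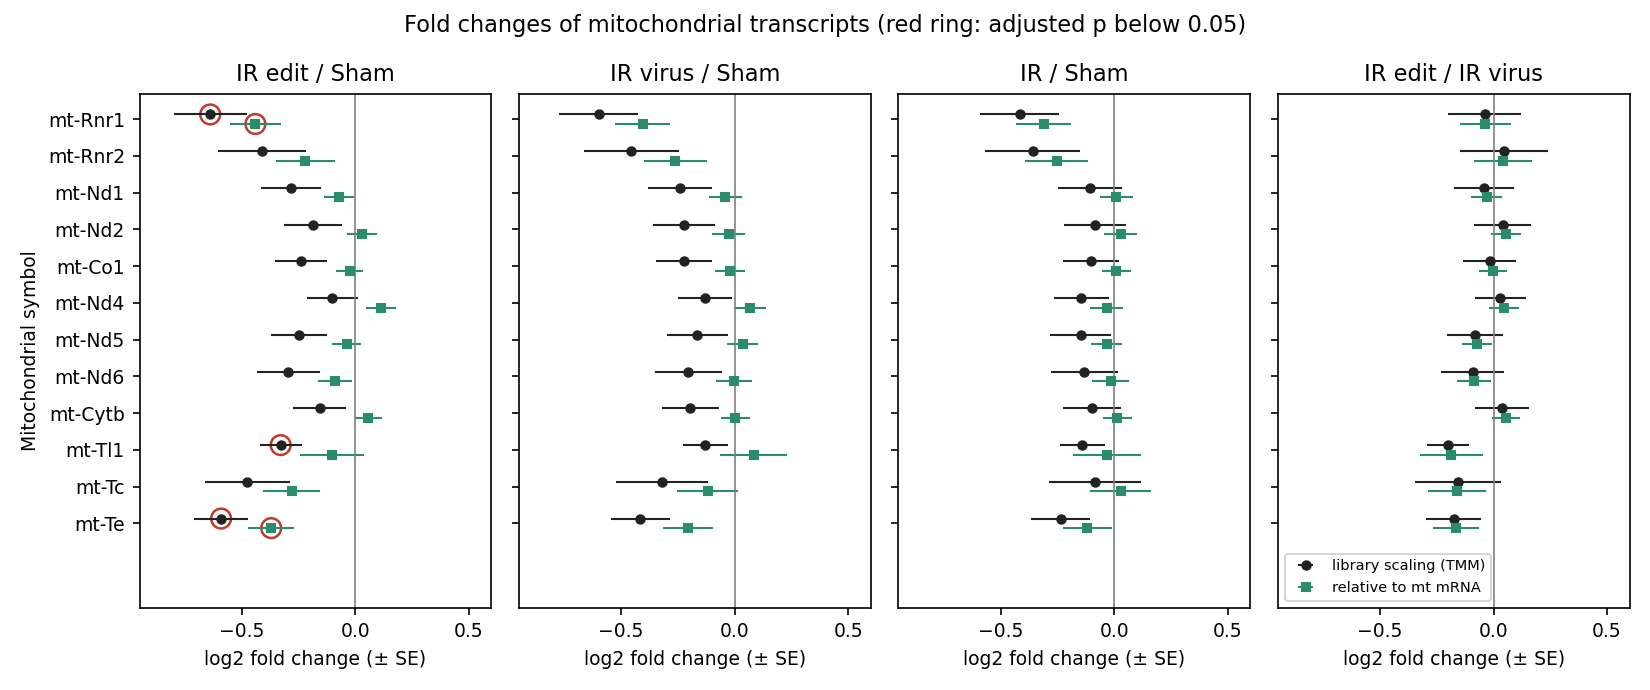
Log2 fold change with SE for the rRNAs, the mRNAs outside the copied interval or across its edge and 3 tRNAs in 4 comparisons, under library scaling and relative to the mitochondrial mRNAs. Ringed points passed an adjusted p of 0.05, as mt-Rnr1 at -0.64 and -0.44 did in IR edit against Sham. Relative to the mRNAs the mRNA points sit around 0, where this scaling centres them.

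Nuclear genes that make, mature and use these transcripts were read from 5 lists. For IR edit against Sham 0 of 18 genes of mitochondrial transcription and the nucleoid were called (median -0.13), and Atad3a, a nucleoid-associated ATPase, had the smallest p at -0.29 (adjusted p = 0.0626). An unadjusted p under 0.05 was found for 4 of the 18, beside 23.6% of all genes, and DESeq2 called 1. Of 23 RNA processing and stability genes 2 fell, Hsd17b10, a subunit of mitochondrial RNase P, by 0.39 ± 0.099 and 1110008L16Rik by 0.37 ± 0.11 (adjusted p = 0.0279 and 0.0475). Of 19 rRNA and tRNA modification genes 1 fell, Trmu, which thiolates mitochondrial tRNAs, by 0.41 ± 0.12 (adjusted p = 0.0414).

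Among the mitochondrial aminoacyl-tRNA synthetases, Yars2 for tyrosine fell by 0.33 ± 0.077 in the same comparison (edgeR adjusted p = 0.0201). Of 74 mitoribosomal protein genes tested 3 fell (median -0.11), Mrpl39 by 0.62 ± 0.098, Mrpl42 by 0.34 ± 0.084 and Mrpl22 by 0.33 ± 0.095 (adjusted p = 0.00247, 0.0245 and 0.0481). All called members of the RNA processing, modification and mitoribosomal lists were lower, beside 3.40% of all genes called lower and 8.01% called in either direction. No set test was run on these lists. For IR virus and IR, each against Sham, and between IR edit and IR virus, edgeR called 0 genes of these 5 lists. Of the 74 mitoribosomal genes, the longest list, 15 had an unadjusted p under 0.05 in IR virus, 3 in IR and 4 between the injected groups, beside 15.4%, 8.33% and 15.2% of all genes, and DESeq2 called 1 in IR virus. The other 4 lists had 1 to 6 such genes in IR virus, 0 to 2 in IR and 0 to 2 between the injected groups, and DESeq2 called 0.

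The 79 nuclear subunits of the respiratory chain and ATP synthase mostly lay below Sham. All but the 4 of complex II, which has no mitochondrially encoded subunit, belong to complexes that also hold products of the mitochondrial mRNAs. For IR edit against Sham 74 of 79 had a negative log2 fold change (median -0.17) and 2 fell, Cox7a2 of complex IV by 0.30 ± 0.078 and Atp5f1 of ATP synthase by 0.29 ± 0.085 (adjusted p = 0.0313 and 0.0482), beside 3.40% of all genes called lower. DESeq2 called 8, with its share of all genes not given here. At an unadjusted p under 0.05 there were 34, beside 23.6% of all genes. The list was negative in 61 of 79 genes in IR virus against Sham (median -0.11) and in 76 of 79 in IR against Sham (median -0.12), with 0 called by edgeR or DESeq2. An unadjusted p under 0.05 was found for 16 in IR virus, beside 15.4% of all genes, and for 4 in IR, beside 8.33%. Atp5f1 had the smallest p in IR virus at -0.28 (edgeR adjusted p = 0.198), and Ndufb2, a complex I subunit, in IR at -0.23 (0.501). The summed level, scaled on nuclear genes, was 38091, 34067, 40394 and 33197 CPM in IR edit hearts, 37398 to 39370 CPM in IR virus, 36986 to 39713 CPM in IR and 41579 to 41831 CPM in Sham hearts. All injured hearts lay below Sham, and IR edit replicate 3, the IR edit heart with the highest mitochondrial share, was the highest among them.

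Markers of heart muscle and of fibroblasts differed beside these values. Of 8 cardiomyocyte markers 1, Atp2a2, the calcium pump of the sarcoplasmic reticulum, fell in IR edit against Sham, by 0.49 ± 0.11 (adjusted p = 0.0201), beside 3.40% of all genes called lower. Against Sham 7 of the 8 were negative in IR edit (median -0.22), 6 in IR virus (median -0.18) and 7 in IR (median -0.19). Of all genes 50.2%, 48.3% and 49.8% were negative in these comparisons. The summed level was 83586, 70938, 87554 and 67217 CPM in IR edit hearts, 82649 to 87566 in IR virus, 77436 to 84395 in IR and 82789 to 97200 CPM in Sham hearts. IR edit replicates 2 and 4, lowest in the cardiomyocyte sum, were also lowest in the nuclear respiratory sum, and IR edit replicate 3 was highest of the group in both and in mitochondrial share. Replicate 2 of IR virus and replicate 3 of IR were likewise highest of their group in the cardiomyocyte sum and in mitochondrial share. The share did not follow that sum throughout. IR edit replicate 2 had a lower sum than replicate 1 but a share of 32.2% against 31.9%. In Sham, replicate 2 had the highest sum (97200 CPM) and the lowest share (34.9%), and replicate 3 the lowest sum (82789 CPM) and the highest share (38.5%).

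Of 6 fibroblast markers 3 rose in IR edit against Sham, Col1a1, a collagen chain, by 1.10 ± 0.26, Col1a2, its partner chain, by 0.78 ± 0.21, and the receptor gene Pdgfra by 0.34 ± 0.098 (adjusted p = 0.0202, 0.0389 and 0.0481), beside 4.61% of all genes called higher. All 6 had a positive log2 fold change in each injured group, with a median of 0.56 in IR edit, 0.77 in IR virus and 0.67 in IR against Sham. In IR virus and IR edgeR called 0, with all 6 at an unadjusted p under 0.05 in both, against 4 in IR edit, and DESeq2 called 4 in IR edit, 3 in IR virus and 0 in IR. The fibroblast sum ran from 1649 to 2585 CPM in IR edit, 1912 to 2635 in IR virus, 1765 to 2511 in IR and 1491 to 1570 CPM in Sham hearts. Of 5 endothelial markers 1 fell in IR edit against Sham, Fabp4, a fatty acid binding protein, by 0.39 (edgeR adjusted p = 0.0156), beside 3.40% of all genes called lower. edgeR and DESeq2 called 0 of 6 macrophage, 0 of 3 adipocyte and 0 of 5 red blood cell markers tested, with 2, 0 and 0 at an unadjusted p under 0.05. The part of cell makeup in the mitochondrial values was not tested.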

How the data were processed

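RNA-seq read counts per gene symbol for 13 hearts were analysed as the authors deposited them: raw counts, 1 file per library, not normalized. HISAT2 2.1.0 and featureCounts 1.6.2 are named per the submitters' processing notes, with Trimmomatic 0.39, FastQC 0.11.8 and build mm10. Annotation, strandedness and the treatment of reads with several matches were not given in the sources used here. All 37 mt- symbols were taken. Positions come from GENCODE M21, and near-identical copies (at least 99% over 100 bases) from BLAST 2.17.0 of its transcripts.

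Counts were fitted for all 13 libraries and 4 groups with edgeR 4.0.16 in R 4.3.3 (TMM, filterByExpr, quasi-likelihood test, Benjamini-Hochberg over 15690 genes, 9 residual degrees of freedom). The SE is the absolute log2 fold change over the square root of F. A second fit took the summed mt mRNA counts as library size. Both were tested on simulated data. Alternatives included DESeq2 1.42.0 and leaving out each heart. Summed shares got no test. The rule for named genes took mt-Nd6, mt-Rnr2, the 2 largest and 2 smallest mRNA fold changes, every mt symbol called, and up to 3 called members (else the smallest p) of each list per contrast (the smallest p is printed for the transcription and respiratory lists). A list member is not reported here. Of 53278 symbols 49721 were found in GENCODE M21. mt-Co1, mt-Cytb, mt-Tc and the nuclear copies were named after their values were seen. Members, lists and tests were chosen with earlier results of these data known. The labels say only that the hearts are separate samples, so p-values measure the spread between these samples, which may be technical.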

Additional observations from a re-analysis of the deposited data

Results flagged for a closer look

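Each flagged value is a single IR edit heart far from the 3 other hearts of its group, in CPM of the raw library total, without TMM scaling. mt-Co3 stood at 90.2 CPM in IR edit replicate 1, with the other IR edit hearts between 17.6 and 26.4 CPM. Gm28661, the copy of mt-Co2, stood at 160.2 CPM in IR edit replicate 2, with the others between 9.64 and 10.9 CPM. Gm10925, the copy of mt-Atp6, stood at 30.7 CPM in IR edit replicate 3, with the others between 15.0 and 17.0 CPM. Gm28439, the copy of the first part of mt-Nd4, stood at 74.3 CPM in IR edit replicate 1, with the others between 10.7 and 15.7 CPM. They are 4 of 39 values checked in this group, where chance alone gives about 1 in 20. Groups of 3 hearts cannot be checked in this way.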

How the results depend on the processing

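The shares and the rRNA to mRNA and mt-Nd6 ratios moved by less than the pooled SD of the groups compared under every alternative run. That SD was wider than some differences, which changed sign when 1 heart was left out. The share did so between IR edit and IR virus (-1.95 to 0.60 percentage points). The rRNA to mRNA ratio did so between IR edit and IR virus (-0.064 to 0.10), IR edit and IR (-0.10 to 0.14) and IR virus and IR (-0.12 to 0.12). The mt-Nd6 ratio did so among IR virus, IR and Sham. The lists kept their counts with scaling on nuclear genes. DESeq2 called 8 nuclear respiratory genes and 6 mitoribosomal ones in IR edit against Sham, against 2 and 3 by edgeR. The share of all genes that DESeq2 called is not given here, so its counts are not set against one. The number of mitochondrial symbols called depended on the settings. In IR edit against Sham it was 3. It was 15 with no low-count filter (2205 of 31973 genes called), 0 with only the groups compared and 1 to 14 with 1 heart left out. In IR virus against Sham it was 0. It was 5 with no filter (863 genes called), 1 with only the groups compared, 1 with DESeq2 and 0 to 1 with 1 heart left out. With no filter it was 4 in IR against Sham (598 genes called), 2 between IR edit and IR virus (1018) and 4 between IR edit and IR (1021), against 0 each. Between IR edit and IR it was 0 to 2 with 1 heart left out. Relative to the mRNAs it was 2 in IR edit against Sham, and 0 with only the groups compared and 0 to 3 with 1 heart left out. There, with no filter, it was 1 in IR virus against Sham (778 genes called), 1 between IR edit and IR virus (485) and 2 in IR edit against IR (605). In IR edit against IR it was 0 to 1 with 1 heart left out. With no filter mt-Co3 was among the symbols called in each comparison of IR edit, under both scalings, and was called higher. It had 2305 counts in IR edit replicate 1 and at most 748 in any other heart. Beyond the fewer hearts or other genes tested, the cause was not tested.

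With the replicate block, the number in the title as a factor, 2 symbols were called in IR virus against Sham (mt-Rnr1 and mt-Te), and relative to the mRNAs 1 was in IR edit and 1 in IR virus against Sham. In IR edit against Sham 2 were, mt-Tl1 being lost. Only 9 of 18 same-numbered pairs had deviations correlated above 0.1 (-0.284 to 0.511), so that the numbers were not taken as pairs. mt-Nd6 in IR edit against IR virus was 0.0018 with the replicate block.

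Some uncalled values changed sign when 1 heart was left out. Under library scaling the ranges were -0.36 to 0.71 for mt-Co3 in IR edit against Sham, and between IR edit and IR virus -0.12 to 0.96 for mt-Co3, -0.23 to 0.019 for mt-Nd6, -0.19 to 0.16 for mt-Rnr2 and -0.064 to 0.11 for mt-Nd2. Relative to the mRNAs they were -0.20 to 0.95 for mt-Co3 in IR edit against Sham, -0.16 to 0.99 for mt-Co3 and -0.061 to 0.13 for mt-Rnr2 in IR edit against IR virus, -0.042 to 0.025 for mt-Nd6 in IR virus against Sham, and -0.043 to 0.013 for mt-Nd6 and -0.029 to 0.057 for mt-Nd2 in IR against Sham. mt-Nd6 in IR virus against Sham was 0.011 with library size from all mitochondrial symbols. The mRNA symbols inside the copied interval had 27 to 2305 counts in a heart, which limits their precision.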
